A study of Mus musculus with 2 samples.

Results

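The genes that make, bind and break down retinoic acid were described in the limb of the mouse embryo at embryonic day 13.5 (E13.5). The 10 genes were taken from a list of symbols: Rdh10 and Dhrs3, Aldh1a1, Aldh1a2 and Aldh1a3, Crabp1 and Crabp2, and Cyp26a1, Cyp26b1 and Cyp26c1. All 10 were found among the 43346 Ensembl genes of the deposited tables, with 23 annotated transcripts between them. The samples form 1 group, limbs of B6NCrl embryos at E13.5 with males and females pooled, and 2 libraries labelled as biological replicates 1 and 2. Each library was made from 10 ng of RNA longer than 200 nt, with synthetic ERCC spike-in transcripts. The labels name separate tissue samples but a shared donor entry, and do not say whether forelimb, hindlimb or both were taken, so the spread between the libraries may be partly technical. With 1 group there is no comparison between conditions, and no p-value is given. The data answer which transcripts of the enzymes and binding proteins of the pathway the limb held, in what proportion, and where the libraries differed. Protein levels and enzyme activity were not measured.

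Retinoic acid is a small signal molecule made from vitamin A. Rdh10 oxidizes retinol to retinaldehyde and Dhrs3 reduces retinaldehyde back to retinol. The Aldh1a enzymes then oxidize retinaldehyde to retinoic acid in a step that cannot be reversed. Crabp1 and Crabp2 bind retinoic acid in the cytoplasm, and the Cyp26 enzymes, which are cytochromes P450, oxidize it to products that are cleared. In the cell nucleus it acts through the receptors Rara, Rarb and Rarg, which pair with Rxr proteins. In the limb, the pathway is known for keeping the distal mesenchyme clear of retinoic acid through Cyp26b1 and for a role of retinoic acid in the loss of the tissue between the digits.

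Replicate 1 held 31927117 expected counts and replicate 2 held 43194518, of which the 10 genes took 26687 and 36386. Expected counts are estimated reads per gene, and TPM, the unit of all levels below, are these counts divided by transcript length and scaled to the same total in each library. All 8 of 8 limb mesenchyme markers (such as Prrx1 and Msx1) were at 1 TPM or more in both libraries, against 61.0% of protein-coding genes. Of the 8 liver markers, 4 were too, with a summed level of 70.55 TPM in replicate 1 and 19.01 TPM in replicate 2. Each value with ± gives the mean over both libraries and their SD (n = 2).

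Of the 10 genes, 8 were at 1 TPM or more in both libraries, against 34.6% of all genes and 61.0% of the 21474 protein-coding genes. Aldh1a1 and Cyp26c1 were below 1 TPM in both. From the highest mean level to the lowest, the order was Crabp1, Crabp2, Dhrs3, Aldh1a2, Rdh10, Cyp26b1, Aldh1a3, Cyp26a1, Aldh1a1 and Cyp26c1. For a pair of genes, the log2 ratio of TPM was taken within each library after adding 0.1 TPM to both. A pair was called past the spread if its sign was the same in each library and its mean exceeded 2 times the combined SD. That SD is the replicate SD of the 500 genes nearest in level to each of the 2 genes. By this rule 6 of the 9 neighbours in the order were past the spread. The 3 that were not are Dhrs3 and Aldh1a2, Aldh1a3 and Cyp26a1, and Aldh1a1 and Cyp26c1. Bulk tissue cannot tell a gene at a low level in many cells from one at a high level in few cells, so fewer cells of a type and less RNA per cell cannot be told apart for any level below.

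**Figure D1:**
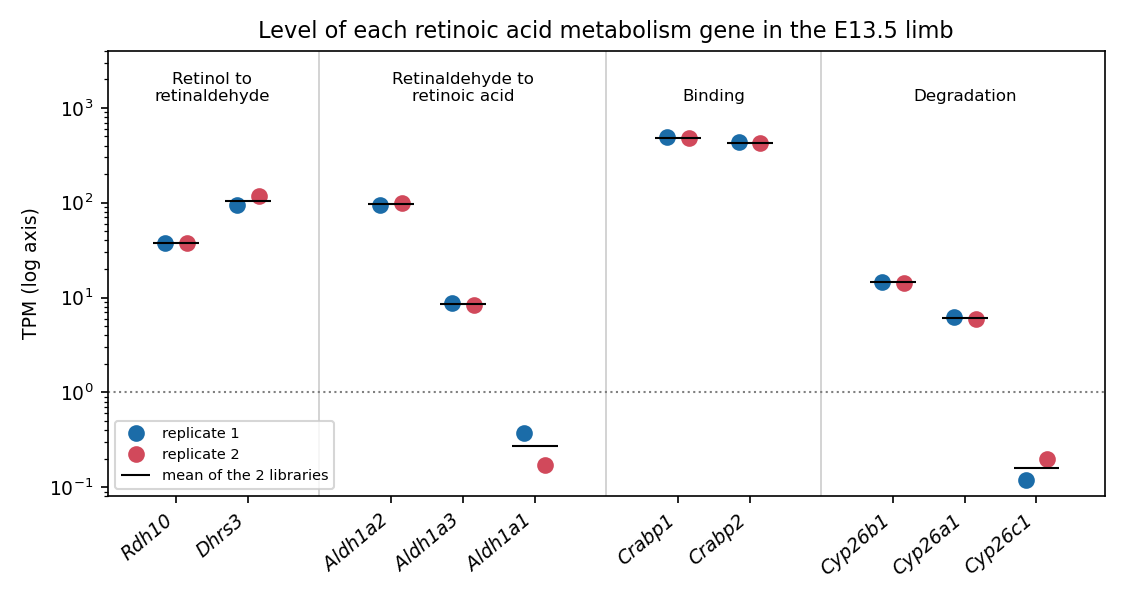
TPM on a log axis of each of the 10 genes in replicate 1 and replicate 2 (points) with the mean of the 2 libraries (line), grouped by step; the dotted line is 1 TPM. The binding proteins lie between 430.69 and 488.25 TPM, and Aldh1a1 and Cyp26c1 lie below the dotted line in both libraries.

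The first step was represented by transcripts of both of its opposing enzymes, with those of the reducing enzyme at the higher level. Gene positions are on mm10, from GENCODE M21. Rdh10 (ENSMUSG00000025921.7, chromosome 1, 16105774 to 16133734, + strand) was at 37.48 TPM in replicate 1 and 37.81 TPM in replicate 2, a mean of 37.6 ± 0.233 TPM. The 2 libraries were close, and the gene had rank 4330 among protein-coding genes. Dhrs3 (ENSMUSG00000066026.10, chromosome 4, 144892827 to 144928209, + strand) was at 93.46 TPM and 116.33 TPM, a mean of 105 ± 16.2 TPM, and was higher in replicate 2. Rdh10 stood below Dhrs3 in each library, with log2 ratios of -1.32 and -1.62. The mean was -1.47 (combined SD 0.11), so that Rdh10 was at 0.362 times the level of Dhrs3, past the spread.

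Transcripts of the second step came mostly from 1 of its 3 genes. Aldh1a2 (ENSMUSG00000013584.5, chromosome 9, 71215789 to 71296243, + strand), the retinaldehyde dehydrogenase of embryonic mesoderm, was at 93.87 and 99.00 TPM, a mean of 96.4 ± 3.63 TPM. Aldh1a3 (ENSMUSG00000015134.10, chromosome 7, 66390890 to 66427517, - strand), best known from sensory and surface epithelia, was at 8.79 and 8.24 TPM, a mean of 8.52 ± 0.389 TPM. Aldh1a1 (ENSMUSG00000053279.6, chromosome 19, 20492715 to 20643465, + strand), known from the eye and adult tissues such as liver, was at 0.37 and 0.17 TPM, from 15 and 9 counts. The groups of values of the 3 enzymes do not overlap. Aldh1a2 made up 91.1% and 92.2% of the family's summed TPM, and Aldh1a3 made up 8.53% and 7.67%. Aldh1a2 was 11.2-fold over Aldh1a3 (log2 ratios 3.40 and 3.57, combined SD 0.31), past the spread. Aldh1a3 was in turn 24.2-fold over Aldh1a1 (log2 ratios 4.24 and 4.95, combined SD 0.74) and Aldh1a2 was 271-fold over it (7.64 and 8.52, combined SD 0.68), both past the spread. The size of these folds over Aldh1a1 depends on the 0.1 TPM added: with 1 TPM added they were 7.51-fold and 76.9-fold, still past the spread.

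The low value of Aldh1a1 rests on few reads. In these libraries 3 counts of Aldh1a1 correspond to 0.0740 TPM and 0.0567 TPM, so its level lies above that floor but is poorly measured. Its deposited credibility intervals of TPM, which are made within a library and hold no spread between embryos, ran from 0.202 to 0.570 and from 0.0784 to 0.297, and overlap. Aldh1a1 also shares 1 of its 1954 stretches of 100 bases with its neighbouring paralogue Aldh1a7, the longest identical run being 100 bases, and Aldh1a7 was at 1.22 and 0.83 TPM. The part of shared reads in the Aldh1a1 value was not tested. Between Aldh1a2 and Aldh1a3 the longest identical run was 26 bases.

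Across the steps, Aldh1a2 stood above Rdh10 and above Cyp26b1. Aldh1a2 was 2.56-fold over Rdh10, with log2 ratios of 1.32 and 1.39 (combined SD 0.10), and 6.61-fold over Cyp26b1, with log2 ratios of 2.67 and 2.78 (combined SD 0.14). Both are past the spread. Aldh1a2 and Dhrs3 could not be ordered: their log2 ratio, Dhrs3 over Aldh1a2, was -0.01 in replicate 1 and 0.23 in replicate 2, so the sign changed between the libraries.

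The binding proteins were the most abundant transcripts of the pathway in both libraries. Crabp1 (ENSMUSG00000032291.8, chromosome 9, 54764748 to 54773110, + strand), a cytoplasmic protein linked to retinoic acid turnover, was at 488.25 and 476.14 TPM, a mean of 482 ± 8.56 TPM. It had rank 247 of 21474 protein-coding genes, in the top 1.15%. Crabp2 (ENSMUSG00000004885.5, chromosome 3, 87948666 to 87953376, + strand), which hands retinoic acid to its nuclear receptors, was at 431.70 and 430.69 TPM, a mean of 431 ± 0.714 TPM, with rank 286. The paralogues stood close to each other, with Crabp1 at 53.1% and 52.5% of their summed TPM. Crabp1 was 1.12-fold over Crabp2 (log2 ratios 0.18 and 0.14, combined SD 0.07), just past the spread. That order depends on the division by length: on expected counts Crabp1 had 7151 and 9262 and Crabp2, whose main transcript is the longer at 931 bases against 802, had 7474 and 9900. It also depends on the libraries, since replicate 2 alone gave 0.14 and was not past the spread. Crabp2 was 4.13-fold over Dhrs3, the next gene in the order.

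**Figure D2:**
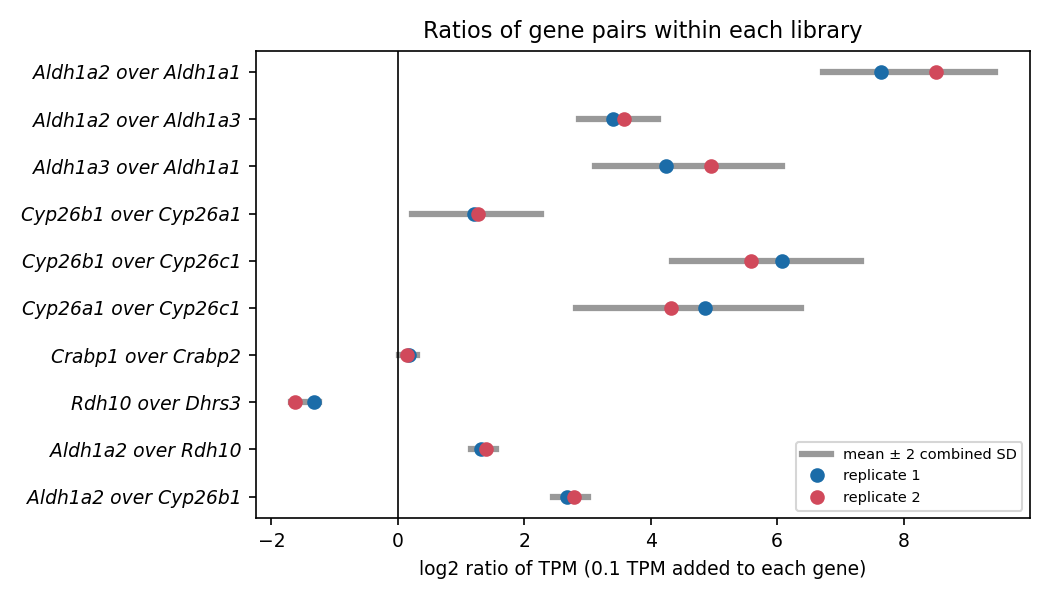
Log2 ratio of TPM (0.1 TPM added to each gene) of 10 gene pairs, as points for replicate 1 and replicate 2; the grey bars are the mean ± 2 combined SD of genes of like level. Aldh1a2 over Aldh1a1 is farthest from 0, and the bar of Crabp1 over Crabp2 comes closest to 0.

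Of the 3 degrading enzymes, 2 were at 1 TPM or more in both libraries. Cyp26b1 (ENSMUSG00000063415.8, chromosome 6, 84571414 to 84593908, - strand), the hydroxylase known from distal limb mesenchyme, was at 14.66 and 14.33 TPM, a mean of 14.5 ± 0.233 TPM. Cyp26a1 (ENSMUSG00000024987.5, chromosome 19, 37697798 to 37701536, + strand), whose gene is a known direct target of the retinoic acid receptors, was at 6.28 and 5.89 TPM, a mean of 6.08 ± 0.276 TPM. Cyp26c1 (ENSMUSG00000062432.4, chromosome 19, 37685581 to 37693398, + strand) was at 0.12 and 0.20 TPM, from 4 and 9 counts, where 3 counts correspond to 0.0900 and 0.0667 TPM. Cyp26b1 was thus the highest and Cyp26c1 the lowest in both libraries, although Cyp26c1 ends only 4399 bases before Cyp26a1 begins on the same strand. Cyp26b1 made up 69.6% and 70.2% of the family's summed TPM, and Cyp26a1 29.8% and 28.8%.

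Cyp26b1 was 2.36-fold over Cyp26a1 (log2 ratios 1.21 and 1.27, combined SD 0.51), past the spread, but the combined SD was 0.73 when the 200 nearest genes were used, and the ratio was then within the spread. Cyp26b1 was 56.8-fold and Cyp26a1 24.1-fold over Cyp26c1 (combined SD 0.75 and 0.89), both past the spread. With 1 TPM added in place of 0.1 TPM, these folds were 13.4 and 6.11, still past the spread. Cyp26a1 and Aldh1a3 stood next to each other in the order, with a log2 ratio of 0.48 in each library against a combined SD of 0.58, and did not differ beyond their spread. The TPM of Cyp26b1 and Cyp26a1 rest on lengths of 4700 and 1773 bases in the annotation of the tables, each less 99 bases. The later release GENCODE M21 gives 4170 and 1791 bases for the same transcripts.

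The promoter of Cyp26a1 is shown because retinoic acid receptors are known to bind it, and those of Dhrs3 because its 2 start regions are compared further on. Start-site windows of 300 bases (250 before and 50 after the start, RefSeq, GRCm38.p6, the assembly also called mm10) were at hand for 7 of the 10 genes, as 10 windows; Aldh1a3, Rdh10 and Crabp2 had none. Each window was searched on both strands for direct repeats of the core motifs AGGTCA and AGTTCA as well as GGGTCA and also GGTTCA, in any combination, with 1, 2 or 5 bases between them (DR1, DR2 and DR5, which use the same core motifs). Capitals mark the core motifs of a repeat. The windows lie at chr19:37697558-37697857 (+), chr4:144892577-144892876 (+) and chr4:144892827-144893126 (+).
Cyp26a1: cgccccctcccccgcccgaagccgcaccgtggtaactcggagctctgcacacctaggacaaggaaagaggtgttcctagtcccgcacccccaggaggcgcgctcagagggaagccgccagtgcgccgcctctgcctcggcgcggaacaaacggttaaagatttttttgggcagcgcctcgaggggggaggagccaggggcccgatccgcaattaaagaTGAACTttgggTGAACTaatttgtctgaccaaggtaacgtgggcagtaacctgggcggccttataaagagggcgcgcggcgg
Dhrs3, upstream start: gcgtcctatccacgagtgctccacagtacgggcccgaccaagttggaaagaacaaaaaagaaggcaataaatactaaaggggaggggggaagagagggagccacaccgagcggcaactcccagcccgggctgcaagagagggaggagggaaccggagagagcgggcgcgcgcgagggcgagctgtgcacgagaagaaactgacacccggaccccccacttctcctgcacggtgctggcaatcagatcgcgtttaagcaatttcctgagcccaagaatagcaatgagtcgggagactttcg
Dhrs3, downstream start: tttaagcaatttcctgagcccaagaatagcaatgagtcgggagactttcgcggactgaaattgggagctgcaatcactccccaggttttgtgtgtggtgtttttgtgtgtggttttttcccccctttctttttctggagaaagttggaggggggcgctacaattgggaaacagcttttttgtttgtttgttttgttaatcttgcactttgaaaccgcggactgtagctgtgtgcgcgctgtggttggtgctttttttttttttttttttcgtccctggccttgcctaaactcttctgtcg

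Of the 10 windows, the Cyp26a1 window held a repeat and the other 9 held none of the 3 kinds. The match is a DR5 on the - strand that ends 15 bases before the start. Among 32851 start-site windows of the same length, 0.0974% held a DR5, 0.268% a DR2 and 0.222% a DR1, while 43.7% held at least 1 single core motif. A match describes the letters and not binding. The Cyp26a1 window had a GC content of 62.3%, against a median of 52.7% over all windows, and those of Dhrs3 had 58.7% at the upstream start and 45.0% at the downstream start.

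The libraries were then compared gene by gene. The log2 ratio of replicate 2 over replicate 1 was taken on scaled counts and called beyond the spread when its size was over 2 times the SD of that ratio in the 500 genes nearest in mean count. Genes were tested if their mean count was 10 or more, which 17982 genes and 9 of the 10 genes of the pathway reached, and 3.63% of all genes tested were beyond the spread. Of these 9, 1 was beyond the spread, Dhrs3, with 3023 counts in replicate 1 and 4990 in replicate 2. Its log2 ratio was 0.29, or 1.22-fold after scaling, 3.27 times the SD of 0.09 of genes of like count.

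The other 8 genes stayed within the spread. The ratios of the 7 with more than 100 counts ran from -0.13 for Aldh1a3 (SD of like genes 0.16) to 0.05 for Aldh1a2 (SD 0.08). Rdh10 was at -0.01 (SD 0.10) and Cyp26b1 at -0.05 (SD 0.10), and the sign of the Rdh10 value changes with the scaling, to 0.02 on the spike-in total. Crabp1 was at -0.06 and Crabp2 at -0.03 (SD 0.08 each), and a correction for length and GC content turns Crabp2 to 0.02. Aldh1a1 was at -1.12, but genes of so few counts had an SD of 0.92, and its difference was not detectable at this depth. By the deposited credibility intervals, 2 of the 9 genes, Dhrs3 (86.9 to 96.1 and 110 to 119 TPM) and Aldh1a2 (88.6 to 94.1 and 94.5 to 99.5 TPM), did not overlap between the libraries, against 9.90% of the 17982 genes. These intervals lie around a posterior mean and can lie below the TPM of the same gene.

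**Figure D3:**
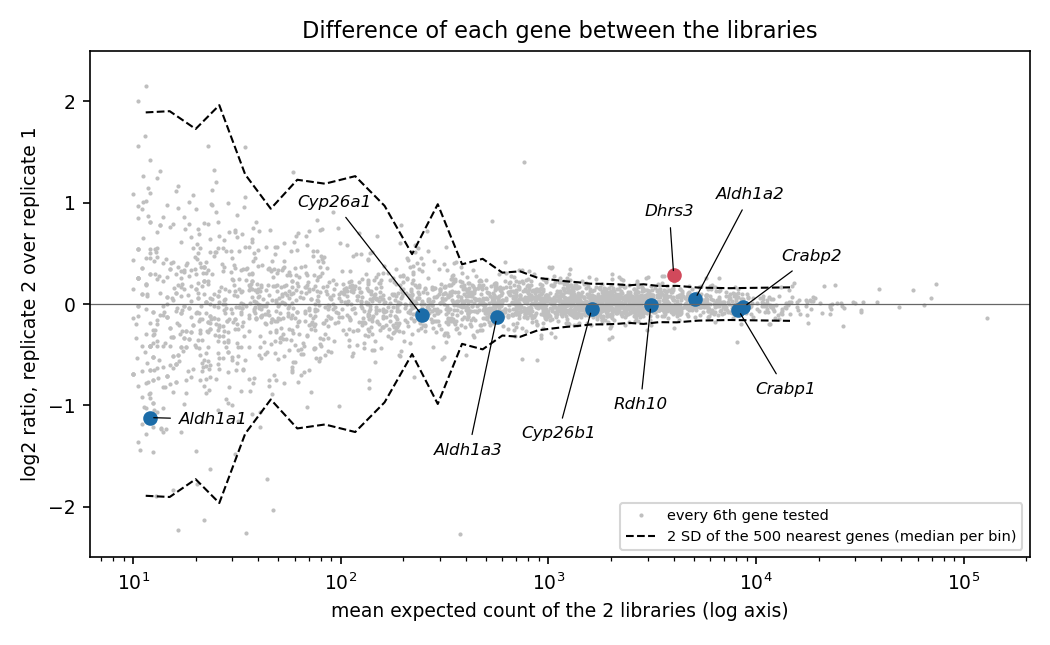
Log2 ratio of replicate 2 over replicate 1 against mean expected count (log axis): grey points are every 6th gene tested, dashed lines are 2 SD of the 500 nearest genes as medians of bins, and large points are the 9 genes of the pathway that were tested. Dhrs3 (red) lies above the upper dashed line at 0.29, and the 8 blue points lie between the lines.

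Markers of 8 tissues or cell types were compared in the same way, against the 3.63% of all genes beyond the spread. Of the 8 limb mesenchyme markers, 4 were beyond the spread: Msx1, a distal gene, at 0.29 and Tbx5, the forelimb gene, at 0.51 were higher in replicate 2. Pitx1, the hindlimb gene, at -0.34 and Hoxd13, a distal gene, at -0.21 were lower. The summed level of all 8 limb mesenchyme markers was 662.5 TPM in replicate 1 and 719.9 TPM in replicate 2. The epidermis markers summed to 646.2 and 735.5 TPM and the chondrocyte markers to 1095 and 1191 TPM, with 2 of 5 beyond the spread in each list. Of the other lists, 2 of 5 Schwann precursor markers and 1 of 5 muscle markers were beyond the spread, and 0 of 5 endothelium and 0 of 4 neuron markers. All 7 of 7 liver markers with a mean of at least 10 counts were beyond the spread and lower in replicate 2, with a median log2 ratio of -2.85. The part of these differences in the Dhrs3 and Aldh1a1 ratios was not tested.

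Dhrs3 is also the gene of the pathway with the most annotated transcripts, 7, and all of them had counts. They differ at the start, at a middle exon and at the end. Dhrs3-207 and Dhrs3-202 begin at an upstream first exon of 84 bases (144892827 to 144892910), and Dhrs3-206, Dhrs3-203, Dhrs3-205 and Dhrs3-201 begin further on, between 144893077 and 144893219. Dhrs3-204 begins inside the gene at 144918879 and keeps an intron. Dhrs3-202, which is annotated as coding, leaves the middle exon out. The middle exon is 120 bases long (144919385 to 144919504) in Dhrs3-205, Dhrs3-206 and Dhrs3-207, also annotated as coding. In Dhrs3-201 and Dhrs3-203 it begins 155 bases earlier (144919230), and in Dhrs3-201 this extension holds a stop codon at 144919260 to 144919262, for which the annotation classes it as a target of nonsense-mediated decay, the clearing of messages with an early stop. The sequences of the short exon and of the start of the extension are shown. The bases of the short exon also lie in Dhrs3-201. At this exon, only the extension separates Dhrs3-201 from Dhrs3-205, Dhrs3-206 and Dhrs3-207. Capitals mark the stop codon.
Short middle exon, chr4:144919385-144919504 (+): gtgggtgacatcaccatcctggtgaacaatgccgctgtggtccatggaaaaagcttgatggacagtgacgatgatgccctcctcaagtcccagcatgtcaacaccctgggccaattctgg
Extension up to the stop codon, chr4:144919230-144919262 (+): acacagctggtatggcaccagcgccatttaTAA

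**Figure D4:**
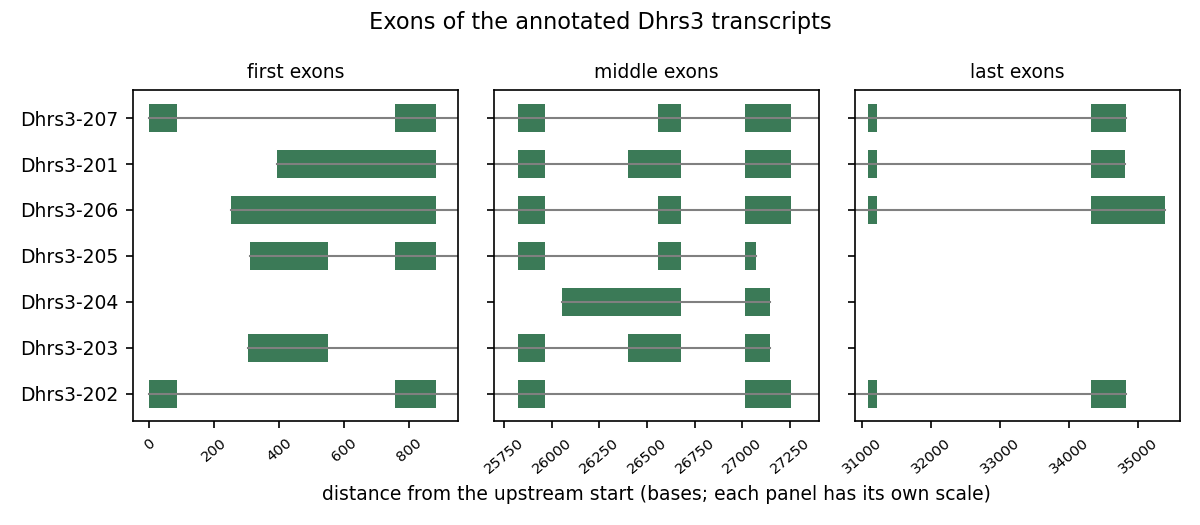
Exons (green boxes) and introns (lines) of the 7 annotated Dhrs3 transcripts in 3 stretches of the gene, as distance in bases from the upstream start, each panel to its own scale. Dhrs3-207 and Dhrs3-202 start at the upstream exon, and the middle exon is extended to the left in Dhrs3-201 and Dhrs3-203.

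Of the 7 transcripts, 3 carried most of the gene, and their order changed between the libraries. Dhrs3-207, coding and from the upstream start, was at 23.87 TPM in replicate 1 and 38.15 TPM in replicate 2, which is 25.54% and 32.79% of the gene. Dhrs3-206, coding and from the downstream start, was at 25.12 and 33.01 TPM, or 26.88% and 28.37%. Dhrs3-201, the decay form, was at 29.25 and 28.52 TPM, or 31.30% and 24.51%. Both coding forms were thus higher in replicate 2, while the decay form was at a like level in both. Dhrs3-205, a further coding form, was at 8.75 and 9.25 TPM. Dhrs3-204 made up 4.76% and 4.56% of the gene, and Dhrs3-203 and Dhrs3-202 were each at 1.17% or less in both libraries.

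The leading transcript of Dhrs3 was Dhrs3-201 in replicate 1 and Dhrs3-207 in replicate 2. It differed between the libraries in this 1 of the 5 genes with several transcripts, and in 7.77% of all such genes whose mean count was 100 or more. No transcript of the 5 genes (0 of 18) differed by more than 10 percentage points of its gene, against 6.04% of all transcripts of such genes. At 5 points, 2 of 18 did, Dhrs3-207 and Dhrs3-201, against 15.8% of all such transcripts. On scaled counts, 2 of 18 transcripts of the pathway with a mean of at least 10 counts were beyond the spread of the 500 nearest transcripts, against 5.45% of all transcripts tested. They were Dhrs3-207, with 622 and 1320 counts and a log2 ratio of 0.65 (1.57-fold, SD of like transcripts 0.19), and Dhrs3-206, with 1171 and 2044 counts and 0.37 (1.29-fold, SD 0.16). Dhrs3-201, with 1025 and 1326 counts, was at -0.06 (SD 0.21) and within it.

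The deposited intervals also lay apart for Dhrs3-207 and Dhrs3-206, but they come from the same reads as the counts and are not independent of them. For Dhrs3-207 the upper bound in replicate 1, 27.5 TPM, lay below the lower bound in replicate 2, 32.9 TPM. For Dhrs3-206 these bounds were 27.8 and 29.4 TPM, so neither pair overlaps. The interval of Dhrs3-201 ran from 23.9 to 32.5 and from 24.0 to 31.2 TPM, and overlaps. Of the 18 pathway transcripts with a mean of at least 10 counts, intervals did not overlap for 3, against 5.22% of all transcripts tested. The third was Aldh1a2-201, which is not among the 18 transcripts of the usage comparison.

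**Figure D5:**
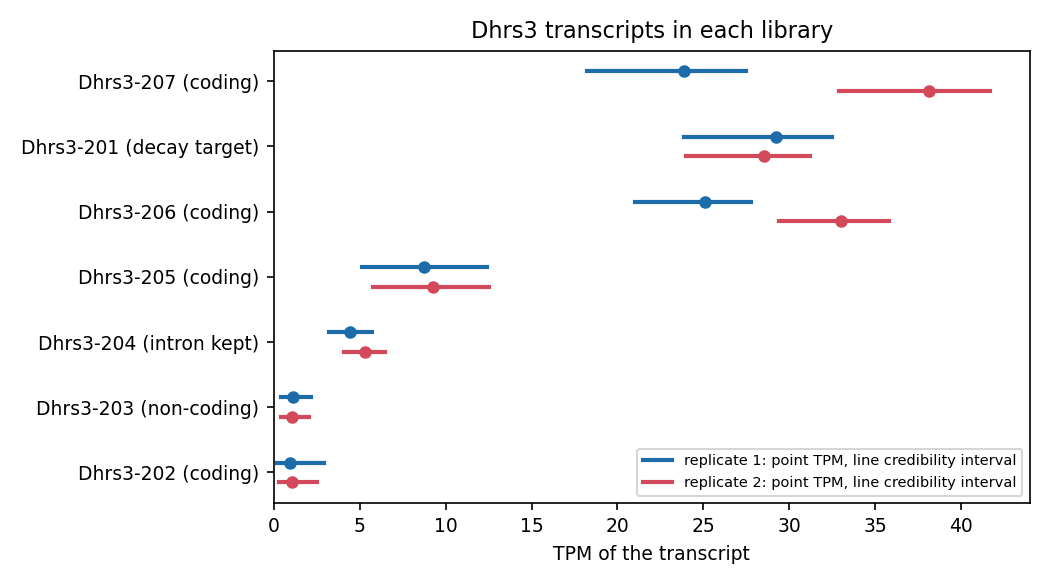
TPM of each annotated Dhrs3 transcript in replicate 1 and replicate 2 (points) with its deposited credibility interval (lines). The intervals of Dhrs3-207 and Dhrs3-206 lie apart between the libraries and those of the other 5 transcripts overlap.

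Summed by feature, transcripts from the upstream start of Dhrs3 had 643.20 and 1352 counts and made up 26.5% and 33.7% of the gene. Those from the downstream starts had 2319 and 3541 counts and made up 68.7% and 61.8%. The upstream start was 1.56-fold higher and the downstream starts 1.13-fold higher in replicate 2. By the middle exon, the short form had 1900 and 3514 counts, 61.8% and 69.1% of the gene, at 1.37-fold after scaling. The extended form had 1040 and 1347 counts, 32.5% and 25.4%, at 0.960-fold. Coding transcripts made up 62.8% of Dhrs3 in replicate 1 and 70.0% in replicate 2. Whether these shares differ beyond the replicate error was not tested. Dhrs3-207 has both the upstream start and the short exon, so the features are not independent. Dhrs3-206 also runs further at its end than Dhrs3-207, to 144928209 against 144927645. The part of this longer end in the start shares was not tested.

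The other genes kept 1 main form. Aldh1a1, Aldh1a2, Cyp26a1, Cyp26c1 and Crabp1 have a single annotated transcript in the tables. Rdh10-201, which is coding, made up 94.71% and 95.05% of Rdh10, and Rdh10-202, a retained intron, the rest. Crabp2-201 made up 99.63% and 99.53% of Crabp2, with a retained intron at 0.37% and 0.47%. In Aldh1a3 the 2 transcripts with counts are both coding: Aldh1a3-201 made up 70.24% and 68.62% and the shorter Aldh1a3-203 made up 29.76% and 31.38%, while the other 3 had 0 counts. In Cyp26b1 all counts were assigned to Cyp26b1-202, but its other transcript, Cyp26b1-201, took 6.42% and 5.33% of the posterior mean, so reads do not tell these near-identical forms apart well.

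The rest of the pathway is given by lists of related genes. Of 17 other retinol and retinaldehyde oxidoreductases 9 were at 1 TPM or more in both libraries, against 61.0% of protein-coding genes. The highest were Adh5 (163.74 and 156.32 TPM), a broadly expressed dehydrogenase, Dhrs4 (51.05 and 52.12 TPM) and Rdh14 (34.33 and 34.69 TPM). The median level of the 17 was 2.89 TPM, against 26.1 TPM for the 10 genes and 4.79 TPM for all 21474 protein-coding genes. Each median is over all genes of the list whatever their counts. None of the 11 with enough counts was beyond the spread between the libraries, against 3.63% of all genes tested. Of 6 further aldehyde dehydrogenases 4 were at 1 TPM or more, led by Aldh2 (135.81 and 136.37 TPM), the mitochondrial enzyme, and 0 of 5 were beyond the spread. The next were Aldh1l2 (2.47 and 2.67 TPM) and Aldh1l1 (1.65 and 1.99 TPM), enzymes of folate metabolism.

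All 6 of 6 retinoid receptors were at 1 TPM or more in both libraries, against 61.0% of protein-coding genes. Rarg (108.72 and 119.84 TPM), the receptor of cartilage and skin, was the highest, before Rxrb (48.16 and 46.13 TPM) and Rara (38.54 and 41.35 TPM). Rarb, whose gene is itself a target of retinoic acid, was at 16.39 and 19.82 TPM. It was the 1 receptor of 6 beyond the spread, against 3.63% of all genes tested. Its log2 ratio of replicate 2 over replicate 1 was 0.25. Of 5 other binding proteins and P450 partners all 5 were at 1 TPM or more, led by Fabp5 (298.47 and 297.46 TPM), a further carrier of retinoic acid, and Por (74.74 and 77.68 TPM), the electron donor of P450 enzymes, then Ppard (2.57 and 2.28 TPM). None of these 5 was beyond the spread.

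Of 10 genes known to respond to retinoic acid, 6 were at 1 TPM or more in both libraries, against 61.0% of protein-coding genes. A mean of at least 10 counts was reached by 7. Among the highest were Stra6, a membrane channel for retinol (20.99 and 24.82 TPM), and Meis1, a proximal limb gene (17.41 and 20.50 TPM). Beyond the spread were 2 of 7, against 3.63% of all genes tested: Meis1 at 0.23 and Rarb at 0.25, both higher in replicate 2. The median ratio of the 7 was 0.2, against 0.0 for all 17982 genes tested. The list shares members with those of uptake and transport and of the receptors, such as Stra6 and Rarb, so these counts are not independent. Cyp26a1, also a known target, was at -0.11 (SD of like genes 0.23) and within the spread.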

How the data were processed

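Total RNA of 2 E13.5 limb libraries was analysed from gene and transcript tables. The build is mm10 per the labels and the annotation GENCODE M4 per the deposited text files; the quantifier is not given in the sources used here, nor is its use of strand. The deposited expected counts are estimates that divide reads among transcripts. The file headers name a length and an effective length, and for transcripts the values of the 2 differ by 99 bases. The deposited TPM and FPKM values were taken as the expected counts divided by effective length and scaled. The deposited IsoPct is a percent, the part of a gene's TPM that comes from a transcript. The deposited bounds of TPM credibility intervals are signal values, per the file headers, and their level is not given there.

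The 10 genes, the lists and the rule for named genes (all 10 members, the 3 highest of each list, overlapping genes, and genes sharing stretches of 100 bases) were chosen with earlier results of these data known. Further list genes, namely those beyond the spread and named markers, were chosen after their values were seen, and some list genes are not reported here. Counts were scaled by TMM (edgeR 4.0.16, R 4.3.3; DESeq2 1.42.0 as alternative) over 17441 genes, with 0.5 added for log2 ratios. Other steps used Python 3.11.15, numpy 2.4.6 and pandas 2.3.3. Symbols matched 42462 of 43346 genes. The tables hold 96 ERCC sequences, which took 2.11% and 2.07% of counts, and 26249 further entries that name no gene, with 0.000226% and 0.000148%, were left out. Positions, biotypes and transcript names are from GENCODE M21 on the same assembly, and 19 of 23 transcripts have the same length in both releases. Besides Aldh1a1, 1 of 4601 stretches of 100 bases of Aldh1a3 is shared, with Casc4. On the opposite strand of Aldh1a1 lies Gm6684, with 0 counts, and C730002L08Rik; Gm48124 lies opposite Aldh1a2. The latter 2 were not analysed here.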

Additional observations from a re-analysis of the deposited data

How the results depend on the processing

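Direction and side of the threshold stayed the same in 57 of 60 alternatives for gene pairs. For library ratios, 68 of 70 alternatives stayed the same. Those 70 include 7 for the number of pathway genes beyond the spread. That number was 1 in each, was judged by the rule for counts below, and has no direction. Of the values without a test, 9 of 12 alternatives for family shares moved by less than the SD of the libraries (for a library left out, they cannot move further by construction), and 8 of 9 for counts stayed within 1.5 times. Adding 1 TPM in place of 0.1 TPM lowered the folds over Aldh1a1 and Cyp26c1 by more than 1.5 times, to 76.9 for Aldh1a2 over Aldh1a1, without changing a call. With the 200 nearest genes, Cyp26b1 over Cyp26a1 stayed at 1.24 (log2) but within the spread. On expected counts, without division by length, Crabp1 over Crabp2 became -0.08 and within the spread, and the family shares moved to 89.7% for Aldh1a2, 86.5% for Cyp26b1 and 48.6% for Crabp1. With each library left out in turn, Crabp1 over Crabp2 ran from 0.14 to 0.18, without replicate 1 the value of 0.14 being within the spread. At 5 percentage points, 2 of 18 transcripts differed in usage (15.8% of all such transcripts), against 0 at 10 points (6.04%). The library ratio of Rdh10 became 0.02 on the spike-in total and that of Crabp2 became 0.02 after a correction for length and GC content, both within the spread. Dhrs3 was beyond the spread at 0.29 to 0.32 under all 7 alternatives tried. The correction for length and GC content and the interval comparison were chosen after seeing the data. Spike-in scaling shifts the median of all genes by 0.026, and other scalings shift it less. Depth limits Aldh1a1 and Cyp26c1, with at most 15 counts in a library.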

Other observations

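Genes for the delivery of vitamin A to tissues differed between the libraries with the liver markers. Of 11 genes of retinoid uptake, storage and transport 5 were at 1 TPM or more in both libraries, against 61.0% of protein-coding genes. The highest level was that of Dgat1 (51.39 and 51.03 TPM), which esterifies retinol among other lipids. Stra6 was at 20.99 and 24.82 TPM. Of 8 with a mean of at least 10 counts, 2 were beyond the spread of like genes, against 3.63% of all genes tested. Both were lower in replicate 2. Rbp4, the retinol carrier of blood plasma, was at 15.92 TPM in replicate 1 and 9.84 TPM in replicate 2 (log2 ratio -0.73). Ttr, its partner in plasma, was at 2.91 and 0.71 TPM (log2 ratio -2.03). The liver markers Afp (22.34 and 1.73 TPM) and Alb (5.28 and 0.86 TPM) were also lower in replicate 2. Their part in the Rbp4 and Ttr values was not tested.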
